A study of Mus musculus with 23 samples.

Results

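The genes described here are 9 mouse regulators of muscle identity and fusion, matched by symbol among 55573 Ensembl gene IDs counted in quadriceps. This is a mostly fast-twitch muscle of the upper hind leg. The members include the 4 myogenic regulatory factors Myod1, Myf5, Myf6 and Myog and the satellite cell factor Pax7. The others are the Mef2 genes Mef2a, Mef2c and Mef2d and the fusion gene Mymk. Mef2b is not a member. Of the 9 members, 8 passed the filter on low counts and were among the 13049 genes tested, and Mymk did not pass. RNA came from 23 C57Bl6 mice (C57BL/6J in the study's methods) of 8 to 10 weeks, with 6 female and 6 male mice on vehicle, 5 female mice on corticosterone and 6 male mice on corticosterone. Pellets under the skin of the neck stayed in place for 14 days and held either 100 mg of cholesterol (vehicle) or 50 mg each of cholesterol and corticosterone, the main glucocorticoid of mice, and all mice were fasted for 5 h before death. The labels name no mutation or transgene. Whole muscle was sequenced, so that a count can come from a fiber or from any other cell of the muscle.

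The myogenic regulatory factors are basic helix-loop-helix transcription factors that pair with E proteins and bind the E-box, a short DNA motif in muscle promoters. Pax7 marks satellite cells, the resident stem cells of muscle, in which Myf5 and MyoD act early and myogenin (Myog) drives terminal differentiation, while MRF4 (Myf6) is the family member that adult fibers express most. MEF2 proteins bind an A/T-rich motif beside the E-boxes of muscle genes and cooperate with the myogenic factors, and myomaker (Mymk) is a membrane protein needed for myoblasts to fuse.

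Each mouse had between 20904150 and 21984477 counts on genes, so that depth differed little, and levels are given as CPM, counts in relation to library size after TMM scaling. Changes are log2 fold changes (log2FC) followed by the standard error (SE) and a p-value adjusted over all tested genes (edgeR's quasi-likelihood test), with a threshold of 0.01. The skeletal muscle markers summed to between 117355 and 319172 CPM in a mouse, which fits the labelled tissue. Several libraries held transcripts of other tissues. The summed adipocyte markers reached 3272 CPM in F10, 3633 CPM in F2 and 6899 CPM in F6, all females on corticosterone, against 219 to 2595 CPM in the vehicle-treated mice of both sexes, and the summed hepatocyte markers were above 1000 CPM (the limit set here) in F6, F10, M8, M9 and M12. The slow fiber markers ranged from 72.4 to 6747 CPM in vehicle-treated mice alone.

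Promoter sequences are shown for the members that passed the threshold in at least 1 sex, from 250 bases before to 50 bases after the start of the gene in RefSeq, on GRCm38.p6 and read 5' to 3' on the strand of the gene. Of the 9 members 6 were matched in that table. Capitals mark the E-box, CANNTG, and a MEF2-type motif, CTANNNNTA or its reverse complement TANNNNTAG. The E-box was found in 72.3% and the MEF2-type motif in 21% of 32851 promoters of the same length, and a match is a description of the letters only.
Myog, chr1:134289754-134290053, plus strand: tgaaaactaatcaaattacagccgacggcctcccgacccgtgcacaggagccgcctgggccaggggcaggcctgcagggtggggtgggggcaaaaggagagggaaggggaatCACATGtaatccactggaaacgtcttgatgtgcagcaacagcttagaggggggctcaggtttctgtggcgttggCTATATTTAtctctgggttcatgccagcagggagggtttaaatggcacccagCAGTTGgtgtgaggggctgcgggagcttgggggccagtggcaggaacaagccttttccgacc
Mef2c, chr13:83503784-83504083, plus strand: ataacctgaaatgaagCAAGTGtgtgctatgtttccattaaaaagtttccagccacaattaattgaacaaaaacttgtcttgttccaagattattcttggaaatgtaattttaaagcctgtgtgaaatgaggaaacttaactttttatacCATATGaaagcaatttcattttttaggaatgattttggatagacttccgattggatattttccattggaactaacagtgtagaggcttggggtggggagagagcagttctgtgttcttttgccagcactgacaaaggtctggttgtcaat
Myf5, chr10:107486085-107486384, minus strand: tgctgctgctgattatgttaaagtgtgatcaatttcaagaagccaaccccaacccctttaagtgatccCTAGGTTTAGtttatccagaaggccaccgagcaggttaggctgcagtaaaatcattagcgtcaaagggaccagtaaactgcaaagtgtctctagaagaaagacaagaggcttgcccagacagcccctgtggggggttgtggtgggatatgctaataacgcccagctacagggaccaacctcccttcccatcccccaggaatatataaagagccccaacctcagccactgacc
Pax7, chr4:139832919-139833218, minus strand: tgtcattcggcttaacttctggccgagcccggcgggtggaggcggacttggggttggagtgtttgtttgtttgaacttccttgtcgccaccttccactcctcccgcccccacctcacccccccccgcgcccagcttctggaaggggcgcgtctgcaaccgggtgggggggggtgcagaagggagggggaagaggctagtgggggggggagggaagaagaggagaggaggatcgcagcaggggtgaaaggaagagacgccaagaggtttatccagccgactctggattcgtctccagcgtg
The RefSeq start lay 15 bases from the annotated start for Myog and 560 bases from it for Pax7. The Myog window held the E-boxes CACATG and CAGTTG, the latter ending 7 bases before the start, and between them the MEF2-type match CTATATTTA from 64 to 56 bases before the start. The Mef2c window, at the most upstream of 3 starts listed for this gene, held the E-boxes CAAGTG and CATATG and no MEF2-type match. Of the windows at its other starts, chr13:83523406-83523705 held neither motif and chr13:83573357-83573656 held 1 of each. In Myf5 the capitals mark a pair of overlapping MEF2-type matches, and there was no E-box. The Pax7 window held neither motif. A palindromic motif of the glucocorticoid receptor type, ACANNNTGT, was in none of these windows and in 6.85% of all promoters.

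In male mice 2 of the 8 tested members passed the threshold with corticosterone, Myog upwards and Mef2c downwards, where 26.3% of all tested genes passed, 13.2% upwards and 13.1% downwards. In female mice 3 of 8 passed, Myf5, Pax7 and Mef2c, all downwards, where 13.4% of all tested genes passed, 7.4% upwards and 6% downwards. The share of members in males was close to that of all genes, and with 8 members neither count sets them apart. The median log2FC of all tested genes was -0.02 in males and 0.04 in females. Fewer cells of a type and less RNA per cell cannot be told apart in these whole-muscle samples.

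**Figure D1:**
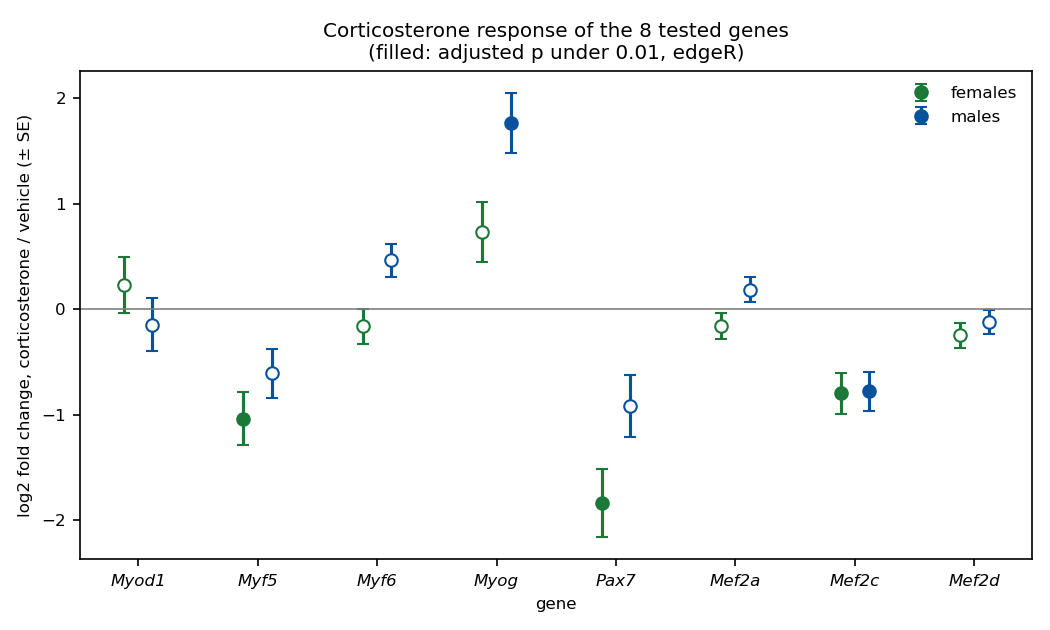
Log2 fold change of each tested member, corticosterone against vehicle, in females (green) and males (blue), with bars of 1 SE and filled points for an adjusted p under 0.01 (edgeR). Myog rose by 1.76 in males, Mef2c fell by 0.78 in males and by 0.80 in females, and Pax7 and Myf5 passed the threshold in females.

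Myog (ENSMUSG00000026459, chr1:134289989-134292548, plus strand), which encodes myogenin, was the member that rose. Vehicle-treated males had between 2.30 and 5.15 CPM (median 2.87) and corticosterone-treated males between 6.48 and 15.8 CPM (median 12.4). Every treated male was above every vehicle-treated male, as was the case for 10.8% of all tested genes. The mean went from 3.48 ± 1.31 CPM (SD, n = 6) to 11.8 ± 3.57 CPM (SD, n = 6), a log2FC of 1.76 (SE 0.28, adjusted p = 5.05e-05), or 3.39-fold. In females the values with vehicle ran from 3.35 to 9.39 CPM (median 6.56), and in the treated F2, F4, F6, F8 and F10, in this order, they were 18.6, 9.54, 8.24, 11.8 and 7.67 CPM. These 5 mice were above the vehicle mean of 6.73 ± 2.07 CPM (SD, n = 6) and 3 of them above every vehicle-treated female, but the log2FC of 0.73 (SE 0.28, adjusted p = 0.0600) did not pass. The level in treated females, 11.2 ± 4.45 CPM (SD, n = 5), was near that in treated males, while vehicle-treated males were lower than vehicle-treated females by 0.95 on the log2 scale (SE 0.28, adjusted p = 0.0800), which did not pass either. The difference between the sexes in the response of Myog was 1.03 (SE 0.40, adjusted p = 0.0834).

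**Figure D2:**
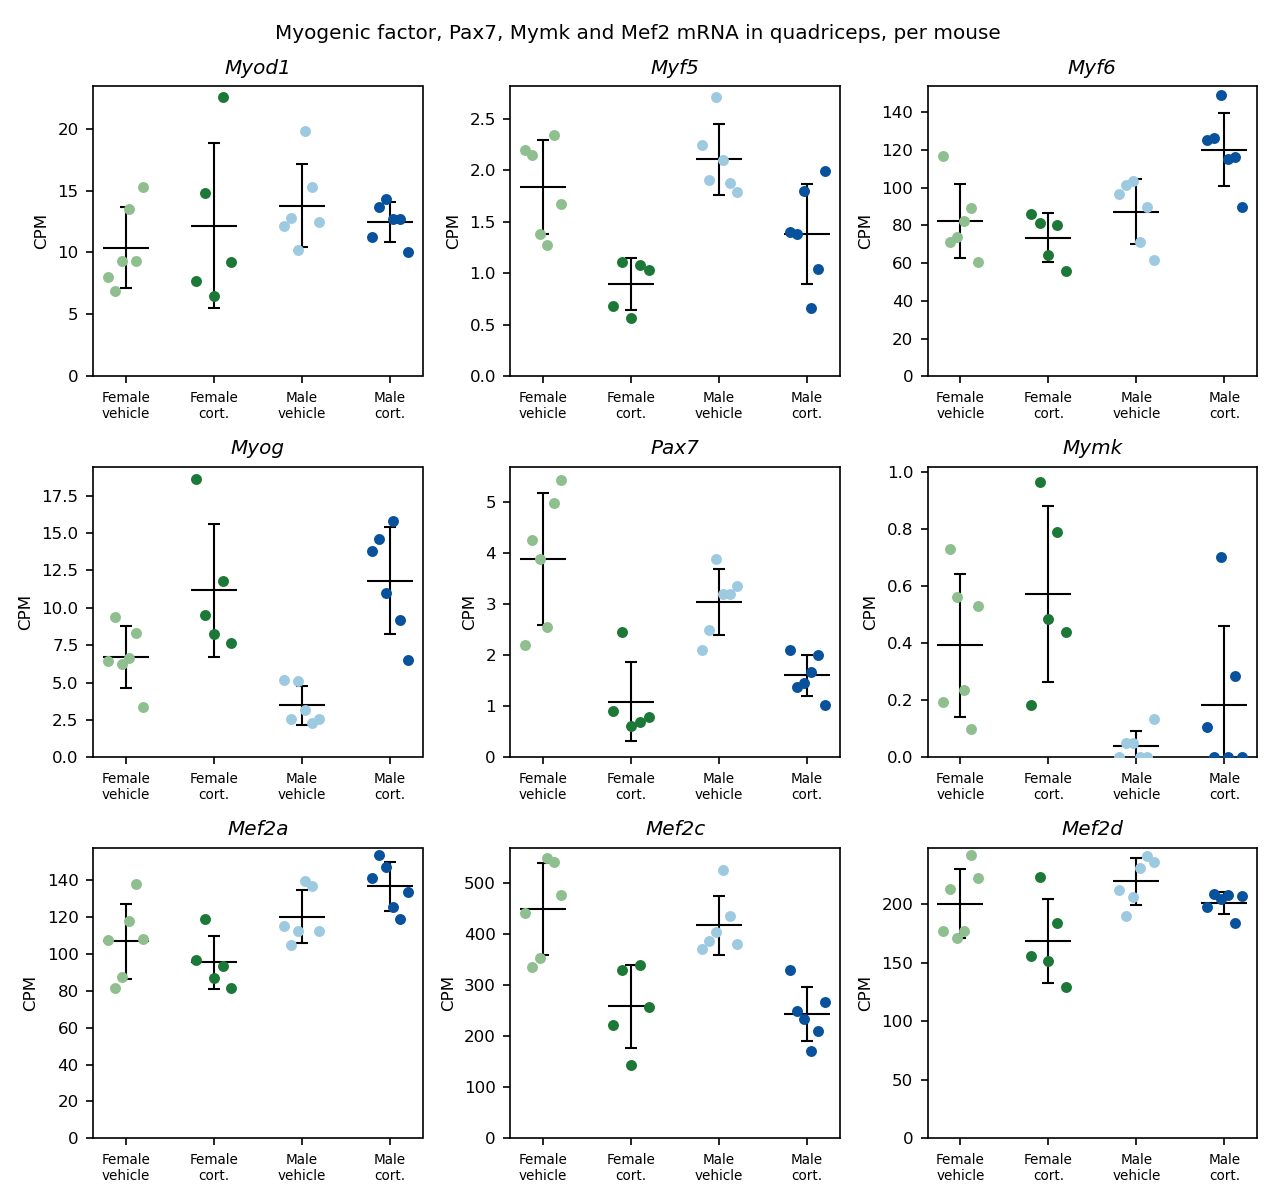
CPM of the 9 genes in each of the 23 mice, by group, with a line at the group mean and bars of 1 SD; the vertical axes start at 0 and differ between genes. Myog of the treated males lies above that of all vehicle-treated males, Mef2c of the treated males below, and Mymk is at or under 1 CPM in all mice. Of all tested genes 10.8% separated upwards and 11.1% downwards in males.

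Myf6 (ENSMUSG00000035923, chr10:107492853-107494737, minus strand), which encodes MRF4, did not pass the threshold with corticosterone in either sex. It had between 61.5 and 103.7 CPM (median 92.9) in vehicle-treated males and between 89.5 and 149 CPM (median 121) in treated males. All 6 treated males were above the vehicle mean, the groups overlapped, and the log2FC was 0.46 (SE 0.16, adjusted p = 0.0242). Vehicle-treated females had between 60.8 and 117 CPM (median 77.9), and the treated females, from F2 to F10, had 86.1, 81.3, 64.2, 80.3 and 55.8 CPM. The treated females lay within the range of the vehicle group except F10, and their log2FC was -0.16 (SE 0.17, adjusted p = 0.502).

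Myod1 (ENSMUSG00000009471, chr7:46376474-46379099, plus strand), which encodes MyoD, had between 10.2 and 19.8 CPM (median 12.6) in vehicle-treated males and between 10.002 and 14.4 CPM (median 12.7) in treated males, a log2FC of -0.15 (SE 0.25, adjusted p = 0.663). In vehicle-treated females it ran from 6.91 to 15.3 CPM (median 9.30). Treated females, from F2 to F10, had 7.68, 14.8, 6.51, 22.6 and 9.22 CPM, a log2FC of 0.23 (SE 0.26, adjusted p = 0.559). The groups overlapped in both sexes, and F8 had the highest value of all mice.

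Pax7 (ENSMUSG00000028736, chr4:139737062-139833528, minus strand) was low throughout and lower in treated mice of both sexes, passing the threshold in females. Vehicle-treated females had between 2.20 and 5.43 CPM (median 4.07), and treated females, from F2 to F10, had 0.909, 2.46, 0.606, 0.689 and 0.795 CPM. Among the treated females 4 of 5 were below every vehicle-treated female and F4 stood apart above the lowest of them. The mean went from 3.88 ± 1.29 CPM (SD, n = 6) to 1.09 ± 0.772 CPM (SD, n = 5), with a log2FC of -1.84 (SE 0.32, adjusted p = 0.000390). In males Pax7 had between 2.10 and 3.89 CPM (median 3.20) with vehicle and between 1.02 and 2.10 CPM (median 1.56) with corticosterone. The highest treated male, M2 with 2.102 CPM, was just under the lowest vehicle-treated male, M1 with 2.105 CPM, and a separation in this direction was seen for 11.1% of all tested genes. The male log2FC was -0.92 (SE 0.30, adjusted p = 0.0168), and it was past the threshold when F4 was left out of the shared estimate of spread (adjusted p = 0.00258). The raw counts behind these values were between 14 and 123 reads per mouse.

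Myf5 (ENSMUSG00000000435, chr10:107482908-107486134, minus strand), which lies 6718 bases from Myf6 on the same strand, is the myogenic factor expressed in quiescent satellite cells. Vehicle-treated females had between 1.28 and 2.35 CPM (median 1.91), and treated females, from F2 to F10, had 0.682, 1.11, 0.566, 1.08 and 1.03 CPM. Every treated female was below every vehicle-treated female, as for 4.34% of all tested genes, and the log2FC was -1.04 (SE 0.25, adjusted p = 0.00462). The call in females was lost without F1 (adjusted p = 0.0116), F9 (0.0122), F2 (0.0166) or F6 (0.0179). Males went from between 1.79 and 2.71 CPM (median 2.004) to between 0.662 and 1.99 CPM (median 1.39), a log2FC of -0.61 (SE 0.23, adjusted p = 0.0406), with all 6 treated males below the vehicle mean. Myf5 rested on 14 to 53 reads per mouse.

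Mef2c (ENSMUSG00000005583, chr13:83504034-83667080, plus strand) fell in both sexes. It had between 370.3 and 525 CPM (median 395) in vehicle-treated males and between 172 and 329 CPM (median 241) in treated males, without overlap. A separation in this direction was seen for 11.1% of all tested genes in males. The male mean went from 417 ± 57.5 to 243 ± 53.3 CPM (SD, n = 6 each), a log2FC of -0.78 (SE 0.18, adjusted p = 0.00198). Vehicle-treated females had between 336 and 548 CPM (median 458), and treated females, from F2 to F10, had 222, 329, 144, 339 and 258 CPM. Of these, 4 were below every vehicle-treated female and F8 was just above the lowest. The female mean went from 449 ± 90.6 CPM (SD, n = 6) to 258 ± 80.5 CPM (SD, n = 5), a log2FC of -0.80 (SE 0.19, adjusted p = 0.00469). The 2 responses differed by 0.02 (SE 0.26, adjusted p = 0.965). In females the call was lost without F7 (adjusted p = 0.0133), F9 (0.0123), F11 (0.0101), F2 (0.0162), F6 (0.0134) or F10 (0.0117), while in males it held without any single mouse.

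The other Mef2 members did not pass in either sex. Mef2a (ENSMUSG00000030557, chr7:67231163-67372858, minus strand) had between 105 and 140 CPM (median 114) in vehicle-treated and between 119 and 154 CPM (median 137) in treated males, with a log2FC of 0.18 (SE 0.12, adjusted p = 0.217). In females it ran from 81.8 to 138 CPM (median 107.8) with vehicle and from 81.6 to 119 CPM with corticosterone, with a log2FC of -0.16 (SE 0.12, adjusted p = 0.347). Mef2d (ENSMUSG00000001419, chr3:88142372-88172086, plus strand) had between 189.9 and 241 CPM (median 221) in vehicle-treated and between 184 and 208 CPM (median 205) in treated males, with a log2FC of -0.12 (SE 0.11, adjusted p = 0.394). In females it ran from 171 to 242 CPM (median 195) with vehicle and from 129.6 to 223 CPM with corticosterone, with a log2FC of -0.25 (SE 0.12, adjusted p = 0.1198). Mef2a overlaps the gene Lysmd4, and Mef2d the antisense transcript 1700113A16Rik, on the opposite strand. These had at most 307 and 34 counts in a mouse, and the counting used the strand. Mef2a also overlaps Gm44668 and Gm44667 on its own strand, with at most 0 and 22 counts, which the strand does not separate.

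The make-up of the 3 Mef2 members, without Mef2b, is given as a description on CPM per kilobase of exon. The length covers all annotated exons of a gene. It was 15715 bases for Mef2c, 14681 for Mef2a and 5985 for Mef2d, and the shares depend on these lengths. In CPM without this scaling the mean of Mef2c was above that of Mef2d in each of the 4 groups. Mef2c took between 34.0% and 41.0% (median 36.9%) of the 3 genes in vehicle-treated males and between 20.2% and 32.9% (median 25.8%) in treated males. In females its share was between 34.2% and 48.1% (median 40.6%) with vehicle and between 22.7% and 37.6% (median 31.6%) with corticosterone. Mef2d held the largest share in every treated mouse, between 49.6% and 64.0%, and in 11 of 12 vehicle-treated mice, the exception being F7 with 40.8% for Mef2d and 48.1% for Mef2c.

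**Figure D3:**
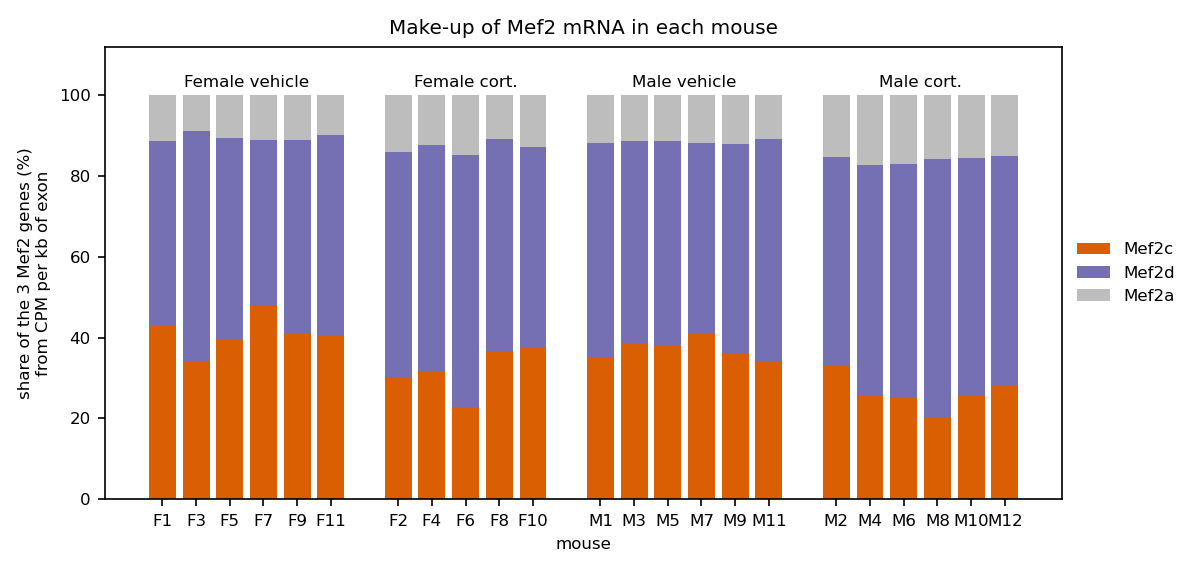
Share of Mef2c (orange), Mef2d (purple) and Mef2a (grey) in the sum of the 3 genes, in percent of CPM per kilobase of exon, for each of the 23 mice. The Mef2c share of the treated males, 20.2% to 32.9%, lies below that of the vehicle-treated males, 34.0% to 41.0%.

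Mymk (ENSMUSG00000009214, chr2:27061636-27072179, minus strand), the fusion gene, was near the limit of these libraries. It had between 2 and 17 counts in vehicle-treated females and between 4 and 20 in treated females. Vehicle-treated males had between 0 and 3 counts and treated males between 0 and 14, with 3 of 6 mice of each group at 0, where a count of 0 allows a level of up to 0.166 CPM at most. The mean in males was 0.0390 ± 0.0526 CPM with vehicle and 0.182 ± 0.277 CPM with corticosterone (SD, n = 6 each), a difference of 0.143 CPM (two-sided exact permutation test, p = 0.303). In females the means were 0.392 ± 0.249 CPM (SD, n = 6) and 0.571 ± 0.307 CPM (SD, n = 5), a difference of 0.179 CPM (p = 0.316 in the same exact test, adjusted p = 0.316 over both sexes). The smallest p-value these designs allow is 0.00216, and a difference between treated and vehicle-treated mice was not detectable at this depth. With vehicle 5 of 6 males were below every female. In an edgeR fit of all 31922 genes with at least 1 count, Mymk had a log2FC of 2.06 with corticosterone in males (SE 0.98, adjusted p = 0.165) and 0.50 in females (SE 0.79, adjusted p = 0.837), and males differed from females by -3.13 with vehicle (SE 0.95, unadjusted p = 0.00297, adjusted p = 0.134) and by -1.57 with corticosterone (SE 0.83, adjusted p = 0.255). None of these passed, and a log2FC on so few counts depends on how the fit treats 0.

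Compared per kilobase of annotated exon, the order of the 9 genes was the same in vehicle-treated mice of both sexes. It ran from Myf6 through Mef2d, Mef2c, Mef2a, Myod1, Myog, Myf5 and Pax7 down to Mymk, and it depends on the annotated lengths. Myf6 led with 65.1 ± 15.4 CPM per kilobase in females and 69.1 ± 13.7 in males, above Mef2d in every mouse of both groups. The neighbours Mef2d and Mef2c, and Mef2a and Myod1, overlapped in both sexes, and in females Myod1 and Myog, Myf5 and Pax7, and Pax7 and Mymk overlapped as well. In vehicle-treated males Myog, with 2.33 ± 0.874 CPM per kilobase, was below Myod1, with 7.41 ± 1.82, in a separate range. In treated mice Myog overlapped Myod1 and Mef2a, and its mean of 7.90 ± 2.39 in males and 7.47 ± 2.97 in females was above that of Myod1. Pax7 took the lowest place in treated females, with 0.186 ± 0.132 CPM per kilobase, within the range of Mymk. Of the 4 myogenic factors together, per kilobase, Myf6 made up between 75.6% and 90.5% in every mouse. Myog made up between 1.89% and 3.94% in vehicle-treated males and between 5.32% and 9.72% in treated males, and between 3.78% and 9.33% against between 8.05% and 14.6% in females.

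Between vehicle-treated males and females none of the 8 tested members passed in edgeR, DESeq2 or limma-voom, where 0.958%, 2.18% and 1.43% of all genes did. With each of these tools 1 member was at an unadjusted p under 0.05, which in edgeR was Myog. With corticosterone 2 of 8 members were higher in males, where 23.3% of all genes passed and 9.31% were higher in males. Myf6 was between 89.5 and 149 CPM in treated males and between 55.8 and 86.1 CPM in treated females, without overlap, with a log2FC of 0.71 (SE 0.17, adjusted p = 0.00252). Mef2a was also higher, with a log2FC of 0.52 (SE 0.12, adjusted p = 0.00267), and its lowest treated male (118.72 CPM) was just above its highest treated female (118.69 CPM). A separation upwards in males was seen for 6.87% of all tested genes. Neither call held with the adipocyte marker score as a covariate (log2FC 0.67, adjusted p = 0.0112 for Myf6 and 0.44, 0.0166 for Mef2a), without F10 and M8 (0.66, 0.0146 and 0.51, 0.0118) or without the 5 mice rich in liver transcripts (0.67, 0.0414 and 0.47, 0.0611). Of all tested genes 12.3%, 10.6% and 2.22% passed in these settings, in this order, against 23.3% in the main test. Over all alternatives the log2FC stayed between 0.64 and 0.79 for Myf6 and between 0.43 and 0.61 for Mef2a. In the same comparison 6 of 8 Schwann cell markers, 6 of 8 macrophage markers and 5 of 6 fibroblast markers were lower in treated males. Of all tested genes 23.3% passed in the main test of this comparison, 9.31% higher in males and the rest lower. Of 7 fast 2B fiber markers 4 were higher, and the part of all these markers in the result was not tested. The Schwann cell markers Sox10 and Mag passed the filter on low counts through female groups alone. Their choice for testing and a lower level in males are therefore not independent. Without F4, Pax7 (log2FC 1.09, adjusted p = 0.00352) and Mef2d (0.38, adjusted p = 0.00887) were higher in treated males as well. No interaction of sex and treatment passed among the 8 members in edgeR, DESeq2 or limma-voom, with 3, 4 and 3 members at an unadjusted p under 0.05, where 0.69% of all genes passed in edgeR. The sexes may have been processed apart, and sex and such a batch cannot be told apart here.

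The satellite cell markers other than Pax7 and Myf5 moved in both directions. Of 16 listed genes 3 rose and 4 fell in males (median log2FC -0.38), and 2 rose and 2 fell in females (median -0.28). Among all tested genes 13.2% rose and 13.1% fell in males, and 7.4% rose and 6% fell in females. Heyl, a target of Notch that is also on the list of Hes genes, fell in males (-0.66, adjusted p = 0.00675), and Fgfr4 fell in females (-0.81, adjusted p = 0.00113). Cd34, which endothelial cells and fibroblasts also carry, fell in males (-1.20, adjusted p = 4.52e-06), as did Cd82 (-0.91, adjusted p = 0.000579). Itga7, a laminin receptor that fibers carry too, rose in males (0.94, adjusted p = 8.33e-07) and females (1.04, adjusted p = 2.57e-06), and so did Sdc4 (0.81 and 0.71). Cdh15, M-cadherin, rose in males (0.95, adjusted p = 3.41e-05) and had a log2FC of -0.16 in females, and this difference between the sexes passed (1.11, adjusted p = 0.00806). Calcr, the calcitonin receptor of quiescent satellite cells, is among the genes counted as lower in both sexes, but it passed the filter on low counts through the vehicle-treated males alone, so that its choice for testing and its lower level in treated males are not independent. It had between 2 and 9 counts in treated males, between 13 and 28 in vehicle-treated females and between 0 and 8 in treated females, and its mean was 1.57 against 0.327 CPM in males and 0.977 against 0.208 CPM in females. Pax7 and Myf5 passed this filter in every group except the treated females. The summed list, in which abundant genes weigh most, had medians of 343 and 360.1 CPM in vehicle-treated and treated males and 331 and 380 CPM in the females. The mean log2 CPM of the list ran from 3.30 to 3.56 in vehicle-treated males and from 2.97 to 3.24 in treated males. In females it ran from 3.09 to 3.72 with vehicle and from 2.92 to 3.30 with corticosterone. Of the 16 genes 4 had a positive log2FC in males and 3 in females, against 48.1% and 54.7% of all tested genes.

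Markers of other cells moved alongside. For comparison, 13.2% of all tested genes rose and 13.1% fell in males, and 7.4% rose and 6% fell in females. Of 6 fibroblast markers 4 fell in males and 2 in females, with summed levels of 777 to 1188 CPM against 317 to 476 CPM in males and 719 to 1518 CPM against 498 to 935 CPM in females. Of 7 adipocyte markers 1 (Lep) rose in females and none passed in males, and of 8 hepatocyte markers none passed in either sex. Among 6 endothelial markers Tek fell in males, and none of the 8 Schwann cell, 8 macrophage, 6 smooth muscle and pericyte or 10 slow fiber markers passed in either sex by edgeR. Among 7 fast 2B fiber markers 2 rose and 1 fell in males and 1 fell in females. With the adipocyte score as a covariate Pax7 stayed past the threshold in females (log2FC -1.79), while Myf5 (-0.98, adjusted p = 0.0221) and Mef2c (-0.57, adjusted p = 0.0358) did not. Without the 5 mice rich in liver transcripts none of the 8 members passed in females, with 4 at an unadjusted p under 0.05 (log2FC -1.54, adjusted p = 0.0160 for Pax7, -0.95, 0.0243 for Myf5 and -0.61, 0.0486 for Mef2c), whereas Myog and Mef2c in males passed in both settings. In females 5.49% of all tested genes passed with the adipocyte score and 3.53% without these 5 mice, against 13.4% in the main test. Over all alternatives the female log2FC stayed between -2.37 and -1.54 for Pax7, between -1.12 and -0.92 for Myf5 and between -0.95 and -0.57 for Mef2c. The part of the fibroblast and fast fiber genes in these results was not tested.

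Of the 12 tested genes linked to denervation and myogenin, of 14 listed, 5 rose, none fell and 7 did not pass in males (median log2FC 0.66), where 13.2% of all tested genes rose, and 1 rose in females (median -0.04), where 7.4% of all tested genes rose. Musk, the receptor kinase that organises the neuromuscular junction, rose from 16.4 to 38.8 CPM in males (log2FC 1.24, adjusted p = 0.000334) and from 8.34 to 17.0 CPM in females (1.03, adjusted p = 0.00484). The acetylcholine receptor subunit Chrnb1 rose in males (0.94, adjusted p = 8.15e-06), where its fellow subunits Chrna1, Chrnd and Chrne did not pass. These did not share 1 direction. Chrna1 had 167 to 378 counts in vehicle-treated males and 245 to 460 in treated males. Chrnd went from between 27 and 72 to between 17 and 38 counts, and Chrne from between 250 and 548 to between 120 and 369. Trim63 and Fbxo32, ubiquitin ligases of muscle atrophy, rose in males with log2FC values of 1.97 (adjusted p = 3.53e-05) and 1.57 (adjusted p = 0.000789). Atrophy genes were also picked out in the study on these samples, so their direction is not independent evidence. Gadd45a, a stress-response gene that denervation induces, rose in males (1.06, adjusted p = 0.000626) and had a log2FC of -0.57 in females, a difference between the sexes of 1.64 (adjusted p = 0.00830). It had between 327 and 553 counts in vehicle-treated males and between 715 and 1434 in vehicle-treated females. With corticosterone the counts ran from 511 to 1389 in males and from 530 to 1001 in females. Hdac4, the deacetylase that represses MEF2 and acts upstream of Myog after denervation, had log2FC values of -0.69 in males (adjusted p = 0.0266) and -0.59 in females (adjusted p = 0.0897).

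**Figure D4:**
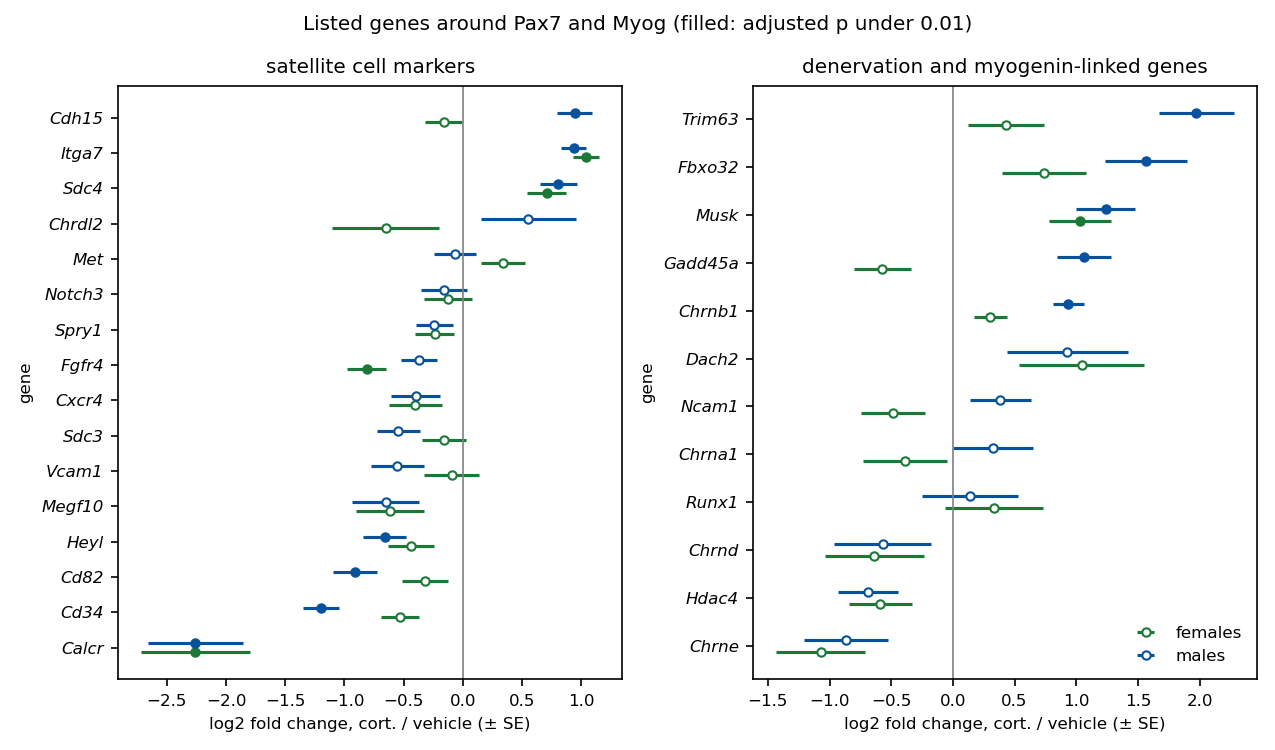
Log2 fold change, corticosterone against vehicle, of the listed satellite cell markers (left) and the tested denervation and myogenin-linked genes (right) in females (green) and males (blue), with bars of 1 SE and filled points for an adjusted p under 0.01 (edgeR). Itga7 and Sdc4 rose in both sexes, and Trim63, Fbxo32, Musk, Gadd45a and Chrnb1 rose in males.

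Among the partners and inhibitors of the myogenic factors were 16 E protein, Id, Hes and related genes. Of these 5 fell in males and none rose (median log2FC -0.43), where 13.1% of all tested genes fell and 13.2% rose. In females 1 rose and 1 fell (median 0.02), where 7.4% of all tested genes rose and 6% fell. Bhlhe41, a repressor known to restrain MyoD, fell from 82.9 to 34.1 CPM in males (-1.28, adjusted p = 1.40e-06) and from 46.8 to 20.8 CPM in females (-1.17, adjusted p = 3.76e-05). In males Msc, a repressor of MyoD target genes, fell (-1.30, adjusted p = 0.000240), and so did Id4, which keeps E proteins from DNA (-2.27, adjusted p = 0.000820). Id4 passed the filter through the vehicle groups alone and had between 2 and 8 counts in treated males. Twist2 rose in females (1.36, adjusted p = 0.00209) and passed the filter through the treated groups alone. Id4 and Twist2 are among the genes counted above, and their choice for testing and their direction are not independent. Of 15 Pax, Eya and homeobox genes 1 rose and 2 fell in males and 1 fell in females. Pitx3 rose in males (1.30, adjusted p = 0.000417), Meox2 fell in males (-0.82, adjusted p = 0.00181), and Eya1, a transcriptional coactivator in muscle precursors, fell in males (-1.03, adjusted p = 0.000629) and females (-0.95, adjusted p = 0.00415).

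Genes around MEF2 moved in both directions. Of 24 tested cofactors and kinases of 26 listed, 5 rose and 1 fell in males, and 1 rose and 3 fell in females. Mef2b was on this list, had at most 16 counts in a mouse and did not pass the filter. Over all tested genes 13.2% rose and 13.1% fell in males, and 7.4% rose and 6% fell in females. Carm1, an arginine methyltransferase and coactivator of MEF2, fell in males (-0.54, adjusted p = 0.000183) and females (-0.75, adjusted p = 3.87e-05). In males Hdac5, a MEF2 repressor, rose (0.53, adjusted p = 1.23e-05), as did Sik1, a kinase that acts on such deacetylases (1.21, adjusted p = 5.42e-05), while Ppp3ca, the catalytic subunit of calcineurin, fell in females (-0.73, adjusted p = 0.00113). Of 22 muscle genes linked to MEF2, 5 rose and 1 fell in males (median log2FC 0.17) and 1 rose and 2 fell in females (median 0.14). Desmin (Des) rose in males (1.21, adjusted p = 1.41e-06) and females (0.64, adjusted p = 0.00310), and Myoz1 (0.75, adjusted p = 0.000336) and Xirp2 (0.73, adjusted p = 0.000471) rose in males. Nr4a1, an early response gene whose promoter MEF2 binds, fell in females (-1.61, adjusted p = 3.74e-06) and had a log2FC of -0.22 in males, a difference between the sexes of 1.39 (adjusted p = 0.00607).

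Of 11 listed genes of fusion and muscle development 9 were tested, with 1 higher and 1 lower in males and 2 lower in females. The shares over all tested genes were 13.2% higher and 13.1% lower in males and 6% lower in females. Actc1, the cardiac actin of developing muscle, fell from 561 to 41.8 CPM in males (-3.75, adjusted p = 0.000185) and from 2616 to 296 CPM in females (-3.14, adjusted p = 0.00283). The imprinted transcript H19 rose in males from 272 to 916 CPM (1.75, adjusted p = 5.42e-05). Dlk1 fell in females (-1.84, adjusted p = 0.00427) but passed the filter through the vehicle groups alone. It is among the genes counted as lower in females, and its choice for testing and its direction are not independent. The fusion partner of Mymk, Mymx, did not pass the filter on low counts.

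The genes whose levels were most like each member over the 23 mice are given as a description, by Pearson's r of log2 CPM. They were picked over treated and vehicle-treated mice together. A change with corticosterone in the direction of the member is therefore not independent of this choice. Myog was followed by Tbc1d4, a regulator of glucose transport (r = 0.894), and Sec63, of the endoplasmic reticulum translocon (r = 0.855). After the group means were taken out these values were 0.664 and 0.454. Tbc1d4 rose in males (log2FC 1.53, adjusted p = 1.49e-07). Mef2c was followed by the sodium channel subunit Scn4b (r = 0.948) and the calcium store protein Casq1 of fast fibers (r = 0.944), with 0.872 and 0.858 within groups. Both fell with Mef2c, Scn4b by 0.81 in males and 0.65 in females and Casq1 by 1.02 and 0.86 on the log2 scale.

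**Figure D5:**
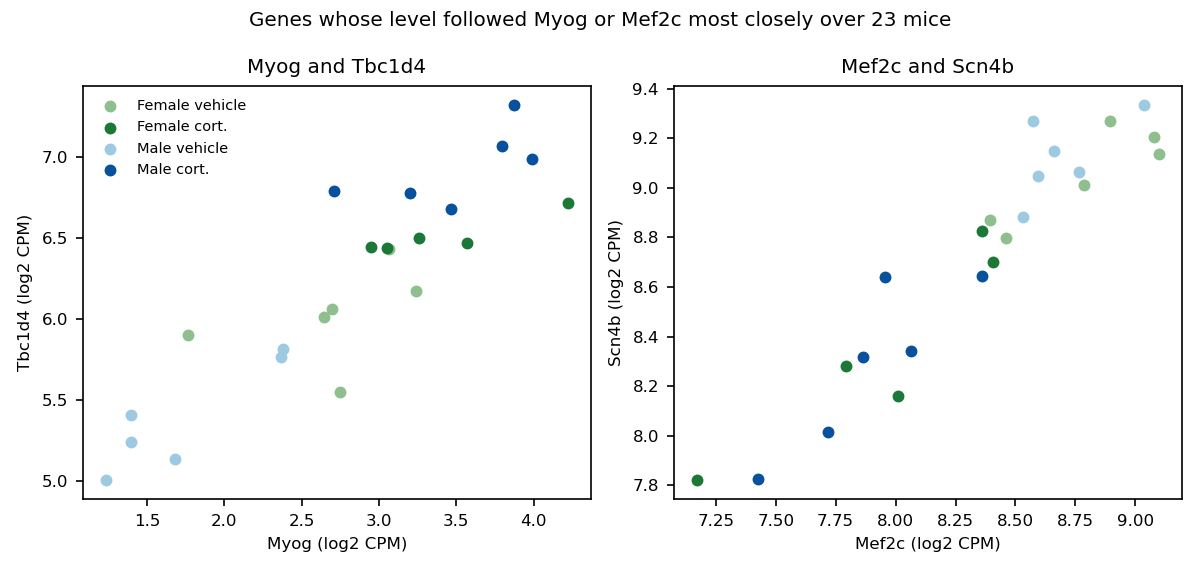
Log2 CPM of Tbc1d4 against Myog (left) and of Scn4b against Mef2c (right), with a point for each of the 23 mice coloured by group. Tbc1d4 followed Myog with r = 0.894 and Scn4b followed Mef2c with r = 0.948.

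Pax7 was followed by 1810013L24Rik (r = 0.902) and the heparan sulfate enzyme Ndst1 (r = 0.864), and Myf5 by Rasgrp3 (r = 0.907) and the Polycomb group gene Scmh1 (r = 0.898). For Myf6 the closest genes were the lysine methyltransferase Smyd2 (r = 0.917) and Gtdc1 (r = 0.890). Smyd2, chosen by its correlation with Myf6, had a log2FC of 0.84 in males (adjusted p = 0.00176) and -0.13 in females. The values for Mef2a were 0.920 for Arih2 and 0.911 for Pcyt1a, and those for Mef2d 0.882 for Elf2 and 0.880 for Zfp956. Over all 23 mice Myod1 had the weakest followers, Cdc26 (r = 0.767) and Pigp (r = 0.726). After the group means were taken out its values were 0.797 and 0.730, above the 0.664 and 0.454 of Myog.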

How the data were processed

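RNA of quadriceps from 23 mice was sequenced, in 4 groups set by the sex and treatment in the labels. Per the labels and the paper's methods, the authors aligned stranded read pairs to mm10 with STAR 2.7.3a, assigned uniquely mapping reads to Ensembl genes with HTSeq 0.12.4 in reverse-stranded mode, and deposited raw counts per gene and mouse. The 5 summary entries for unassigned reads, 10.7% to 15.3% of read pairs, were left out. GENCODE M21 (GRCm38) gave names and positions for 55480 of 55573 gene IDs, and RefSeq gave the promoters.

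The main test was the quasi-likelihood test of edgeR 4.0.16 in R 4.3.3 (TMM, 1 model of 4 groups). A gene was tested if over 20 median-of-ratios normalized counts were reached in 4 or more mice of any group, which left 13049 genes. Benjamini-Hochberg adjustment ran over these genes, with a threshold of 0.01. Log2 CPM used a prior count of 1, and 3 counts, the limit that a count of 0 allows, correspond to 0.119 to 0.166 CPM (counting error only). Mymk was tested by exact permutation on CPM. Alternatives were DESeq2 1.42.0, limma-voom 3.58.1 with sample quality weights, other filters and scaling, each sex alone, covariates and left-out mice. A covariate score is the mean log2 CPM of a marker list. The scripts were tested on simulated data.

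Members, lists and tests were chosen with earlier results of these data known. The text names all members, for each tested member the 2 genes of highest correlation, up to 4 called genes of smallest p per list, and markers that move with a result. Fbxo32, Heyl, Fgfr4, Cd82, Sdc4, Hdac4, the other acetylcholine receptor subunits and Mymx were named after their values were seen. The labels number the mice but name no litter or batch, and whether males and females were processed together is not given in the sources used here. Other cohorts of the study were not analysed here.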

Additional observations from a re-analysis of the deposited data

Results flagged for a closer look

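Pax7 in F4, a corticosterone-treated female, was 2.46 CPM, while the other 4 treated females lay between 0.606 and 0.909 CPM. Its gap to the nearest of these was large for the range of the group by Dixon's test. Each of the 9 genes was tested in each of the 4 groups, 36 tests in all, of which this was the only one past the limit, and chance alone marks about 1 group in 20. Without F4 the log2FC of Pax7 in females was -2.37 (adjusted p = 4.80e-06), its interaction of sex and treatment was 1.45 (adjusted p = 0.0114), and Pax7 passed the threshold in males (log2FC -0.92, adjusted p = 0.00258).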

How the results depend on the processing

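The calls for Myog and Mef2c in males held in all 33 refits run for each (adjusted p from 5.86e-09 to 0.000266 for Myog and from 0.000231 to 0.00868 for Mef2c). The female calls and the calls between treated males and females were less stable, and the cause was not tested. Over all single members 1258 values kept their direction and side of the threshold, 25 lost a call, 7 gained a call and 32 changed sign. Alternatives were run for the members and not for the genes of the lists. The slow fiber score and the removal of the 5 mice rich in liver transcripts were chosen after seeing the data.

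In males 4 members passed with limma-voom (Myf6, Myog, Pax7 and Mef2c) and 1 with an added limit of 1 on the log2FC (Myog), under which the call of Mef2c was lost. In females 0 passed with each sex fitted alone in edgeR or without the 5 liver-rich mice (4 at an unadjusted p under 0.05 in each, against 3 calls with DESeq2 on all mice), and 1 with the adipocyte score as a covariate (Pax7). Between treated males and females 0 passed with the log2FC limit (4 at an unadjusted p under 0.05), with the adipocyte score, without F10 and M8, or without the 5 mice (3 in each of these, against 2 calls with DESeq2). Of all tested genes 31.6% passed in males with limma-voom and 7.53% with the log2FC limit. In females the share was 4.3% with each sex alone, 3.53% without the 5 mice and 5.49% with the adipocyte score. Between treated sexes it was 7.77% with the limit, 12.3% with the score, 10.6% without F10 and M8, and 2.22% without the 5 mice. The main test gave 26.3%, 13.4% and 23.3%. Leaving out each mouse in turn gave 2 to 3 members in males, 1 to 3 in females, 2 to 4 between treated sexes, and 0 to 0 for the interaction and with vehicle (edgeR).

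Signs changed for Myod1, Myog and Mef2c in comparisons without a call. Myod1 in females was -0.23 and its interaction 0.12 with limma-voom, and between treated sexes Myod1 was -0.23 with the adipocyte score, -0.0414 without F10 and M8, -0.0232 with the slow fiber score and -0.19 without the 5 mice. Myog between treated sexes was -0.14 with limma-voom, -0.11 without F10 and M8 and -0.10 without the 5 mice. Mef2c between treated sexes was 0.0909 with limma-voom and 0.0109 without F10 and M8, and its interaction was -0.18 with the adipocyte score, -0.0457 with the slow fiber score and -0.0674 without the 5 mice. With 1 mouse left out, Myod1 ranged from -0.12 to 0.38 in females and from -0.11 to 0.38 between treated sexes, Myog from -0.0221 to 0.34 and Mef2c from -0.22 to 0.0318 between treated sexes, and the Mef2c interaction from -0.12 to 0.14.

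Mice of the same number in both sexes did not deviate together in every pair (r from -0.375 to 0.477 over 11 pairs), so the numbers were not taken to pair mice. With the replicate block 0 members passed for the interaction and with vehicle, and 2 between treated sexes, the same genes as without it.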
